A study of Homo sapiens with 12 samples.

Results

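The response of HL-60 cells to the start of decitabine treatment was examined in the 4 RNA-seq libraries taken at 6 h, 2 from cells given decitabine and 2 from cells given its solvent DMSO. These 4 libraries were chosen by the treatment and time in their labels, out of 12 samples in the labels and 11 libraries with values. HL-60 is an established human promyelocytic leukaemia line, and all 4 libraries came from cells of wild-type genotype seeded at 100000 cells per mL. Treated cells received decitabine at 100 nM at 0, 24 and 48 h, so cells taken at 6 h had received the dose of 0 h alone. Decitabine and DMSO cells were also taken at 72 and 120 h, and the 120 h libraries serve here as the later comparison. Total RNA was depleted of ribosomal RNA and sequenced as single-end reads with a kit that marks the strand. The cells were plated in duplicate, and nothing in the labels says that the duplicates were separate cultures. P-values therefore reflect how far these particular samples spread, and that spread may be technical.

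Decitabine is a deoxycytidine analogue that enters cells through nucleoside transporters, is phosphorylated by deoxycytidine kinase and is built into DNA during replication. There it traps the maintenance methyltransferase DNMT1, whose protein is then degraded, so that cytosine methylation is lost as cells go on dividing. Genes held silent by promoter methylation, such as germ-line genes and cancer-testis antigens, are the transcripts best known to appear after such treatment. HL-60 lacks p53, the transcription factor that drives a large part of the response to DNA damage.

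The deposited values have the spacing of estimated counts scaled by one size factor for each library, and they are called normalised counts below. The estimated depth was 15184687 and 32902759 counts for decitabine 6 h replicates 1 and 2, and 14431219 and 19756253 counts for DMSO 6 h replicates 1 and 2. A single count was worth 0.407 to 0.961 normalised units in these libraries. The median absolute log2 difference over the genes tested was 0.252 between the decitabine replicates and 0.199 between the DMSO replicates, against 0.229 to 0.278 between a decitabine and a DMSO library of 6 h. Decitabine and DMSO libraries at 6 h were thus about as far apart as replicates of one treatment. The 2 decitabine libraries of 72 h stood apart from one another, at 0.590. Replicate 2 of these lay at 0.590 to 0.725 from every other library. Replicate 1 lay at 0.297 to 0.451 from the libraries other than replicate 2. Both enter the shared estimate of the spread, so results are given with and without the 72 h libraries where these differ. Primary granule genes, which mark promyelocytes, were abundant. Over 18 of them the summed value was 313636 and 296174 in the decitabine libraries and 338098 and 319372 in the DMSO libraries. The sum over 25 lymphoid genes was 474 and 610.0 with decitabine and 712 and 608 with DMSO, with 20 of them under 10 in all 4 libraries and 8 listed at 0 in all 4. The sum over 22 epithelial, stromal and endothelial genes was 595 to 706, with 18 under 10 and 6 at 0.

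At 6 h no gene was called. Of 16152 genes tested with limma (a linear model with 1 mean per treatment and time, two-sided, Benjamini-Hochberg adjustment over all genes tested), 0 passed an adjusted p of 0.05 (0% called), and the smallest adjusted p was 0.257, for AL110114.1. At an unadjusted p under 0.05 there were 541 genes (3.35%), 263 higher with decitabine (1.63%) and 278 lower (1.72%). No other tool was run. Without the 72 h libraries the same model tested 15640 genes, called 1 and left 1259 at an unadjusted p under 0.05, 584 higher and 675 lower. Leaving out decitabine 6 h replicate 2 called 3 genes, and leaving out DMSO 6 h replicate 2 or decitabine 72 h replicate 1 called 1 each; leaving out any other single library called 0. The unadjusted count was 313 without decitabine 6 h replicate 1, and 1277 and 1271 without decitabine 72 h replicates 1 and 2. With 2 libraries against 2, an exact permutation test of a single gene cannot go below a p of 0.333.

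The fitted changes were small as well as uncalled. The median log2 fold change, on the log2(value + 1) scale that understates the change of low genes, was -0.0086, and the 5th and 95th percentiles were -0.72 and 0.78. The median absolute change was 0.198 at 6 h against 0.480 at 120 h. For 8129 of the 16152 genes (50.3%) the whole 95% interval lay within 2-fold of no change, and this held for 7007 of the 8842 genes with a mean of at least 100 at 6 h (79.2%). Without the 72 h libraries the share over all genes tested was 61.4%, and it was 33.3% without decitabine 6 h replicate 2. Precision followed the level of the gene. Genes with a mean under 10 had a median interval half-width of 1.49, or 2.82-fold, whereas genes of 300 to 1000 had a half-width of 0.52, or 1.43-fold. A change of 2-fold in a gene under 30 was therefore mostly smaller than the interval half-width at this depth and number of libraries. These intervals are not adjusted for the number of genes tested, so a 2-fold change in a gene of higher level could also go uncalled. The number of genes with fitted changes of at least 2-fold was 513 higher (3.18%) and 429 lower (2.66%), none of them called. Scaling all libraries to equal totals moved the median over all genes to 0.041, and quantile normalisation moved it to 0.0011, so list medians are also given under these scalings where they moved by more than 1.5 times.

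**Figure D1:**
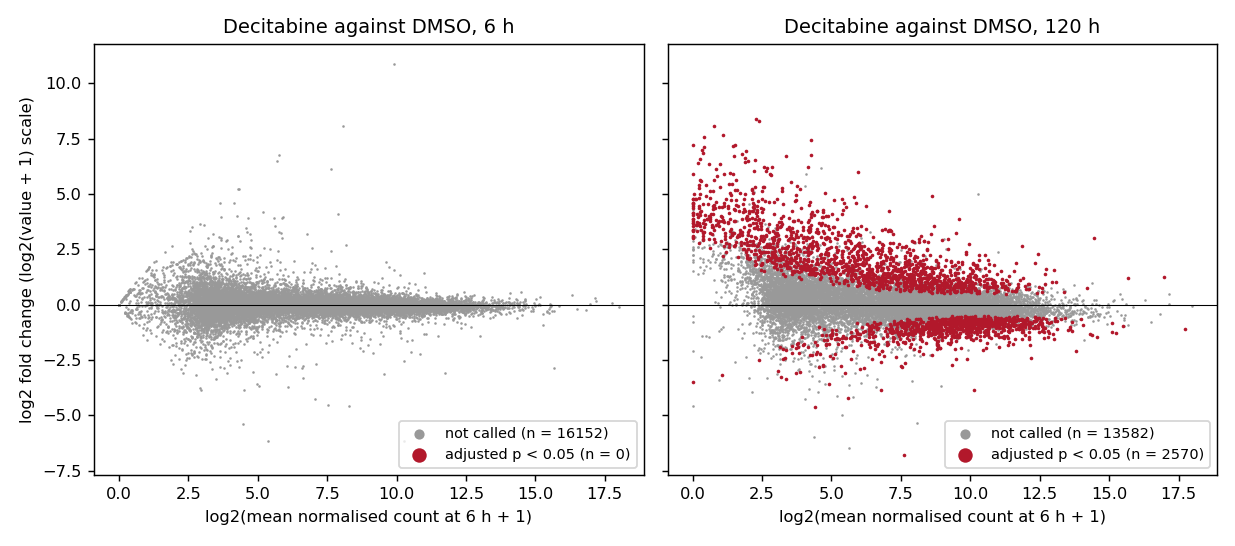
Each point is 1 of 16152 genes, with the log2 of its mean normalised count at 6 h plus 1 on the horizontal axis and the limma log2 fold change of decitabine over DMSO on the vertical axis, at 6 h (left) and 120 h (right). Red points passed an adjusted p of 0.05, which holds for 0 genes at 6 h and 2570 at 120 h; the 6 h points narrow towards 0 as the level rises.

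The genes of the drug's own route had no called change. SLC29A1, the equilibrative nucleoside transporter, had 986 and 945 normalised counts with decitabine and 878 and 919 with DMSO. The activating kinase DCK had 2913 and 2545 with decitabine and 2386 and 2750.3 with DMSO, a log2 fold change of 0.088 ± 0.28 SE. CDA, the deaminase that inactivates the drug, had 21.9 and 39.8 with decitabine and 47.9 and 29.4 with DMSO. In these last 2 genes the groups overlapped, and in SLC29A1 both decitabine values lay above both DMSO values by a log2 fold change of 0.10 ± 0.34 SE. SAMHD1, a triphosphohydrolase that destroys deoxynucleotide triphosphates including that of decitabine, had 1832 and 2041 with decitabine and 2447 and 2326 with DMSO. Both SAMHD1 values with decitabine were the lower ones, with a log2 fold change of -0.30 ± 0.18 SE (95% interval -0.71 to 0.11), and the gene did not pass (limma, Benjamini-Hochberg adjusted p = 1). Without the 72 h libraries its interval was -0.52 to -0.086 and its unadjusted limma p 0.0127, still not past adjustment. The subunits of ribonucleotide reductase, which makes deoxynucleotides, gave log2 fold changes of 0.011 for RRM1 and 0.16 for RRM2, and thymidylate synthase, TYMS, gave 0.20. Of 24 tested genes of uptake and metabolism 14 had a positive change, against 48.5% of all genes, and the median was 0.048, against -0.0086 over all genes; it was 0.10 with equal totals and 0.073 with quantile normalisation. Their groups did not overlap in 5 genes, 3 above and 2 below, where 18.2% and 20.8% of all genes did so.

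The transcripts of the DNA methylation machinery showed no called change at 6 h. DNMT1, the maintenance methyltransferase that decitabine traps as a protein, had 4360.1 and 6523 with decitabine and 6285 and 6475 with DMSO. Decitabine replicate 1 was the low library, and replicate 2 lay above both DMSO libraries, so the groups overlapped. The log2 fold change was -0.26 ± 0.36 SE with a 95% interval of -1.09 to 0.57, or -0.73 to 0.22 without the 72 h libraries, and it concerns the transcript alone. UHRF1, which brings DNMT1 to newly copied DNA, had 2246 and 2372 with decitabine and 2561 and 2424 with DMSO, and its interval of -0.47 to 0.25 lay within 2-fold. The de novo methyltransferases had higher values in both decitabine libraries. DNMT3A stood at 93.3 and 105 with decitabine and 63.6 and 81.6 with DMSO, a log2 fold change of 0.45 ± 0.33 SE. DNMT3B stood at 47.5 and 49.2 with decitabine and 40.9 and 31.9 with DMSO, a change of 0.41 ± 0.26 SE. Neither passed (limma, Benjamini-Hochberg adjusted p = 1 for each). TET2, an enzyme that oxidises methylcytosine, had 1155 and 1336 with decitabine and 1071 and 1433 with DMSO, which overlapped. Over the 19 tested genes of this machinery 7 had a positive change and the median was -0.068, or -0.016 with equal totals and -0.045 with quantile normalisation. Of the 19, 5 had both decitabine values above and 5 had both below, where 18.2% and 20.8% of all genes did so.

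HL-60 identity genes and lineage factors were likewise without a called change. MYC, the transcription factor amplified in this line, had 14182 and 15598 with decitabine and 14312 and 13615 with DMSO, and its interval of -0.33 to 0.51 in log2 units leaves out a 2-fold change in either direction. MYB, a factor of immature blood cells, gave -0.015 ± 0.29 SE. The myeloid factors SPI1, CEBPA and CEBPE gave log2 fold changes of -0.044, 0.0068 and 0.23. IRF8, which favours monocytes over granulocytes, had 809 and 914 with decitabine and 1028 and 1044 with DMSO. Both decitabine values of IRF8 were below both DMSO values, with a log2 fold change of -0.27 ± 0.17 SE (limma, Benjamini-Hochberg adjusted p = 1). GATA2, a factor of stem cells and mast cells, overlapped at 211 and 251 against 227 and 201. MPO, myeloperoxidase of the primary granules, had 102339 and 111308 with decitabine and 135571 and 115397 with DMSO. ELANE, neutrophil elastase of the same granules, had 891 and 847 with decitabine and 583 and 517 with DMSO. These did not overlap for either gene, in opposite directions, at -0.23 ± 0.28 SE for MPO and 0.66 ± 0.41 SE for ELANE. DMSO libraries of other times held 771 and 909 of ELANE at 120 h and 868 at 72 h, around its decitabine values of 6 h. Without the 72 h libraries the unadjusted limma p of ELANE was 9.02e-04, and its Benjamini-Hochberg adjusted p 0.421 was the smallest among the 43 tested genes of the panel plotted by library. In that fit 6 of the 43 had an unadjusted p under 0.05 (SAMHD1, CEBPE, IRF8, FOS, ELANE and CXCL8), where 8.05% of all genes did, against 1 with all libraries, MAEL, where 3.35% of all genes did.

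**Figure D2:**
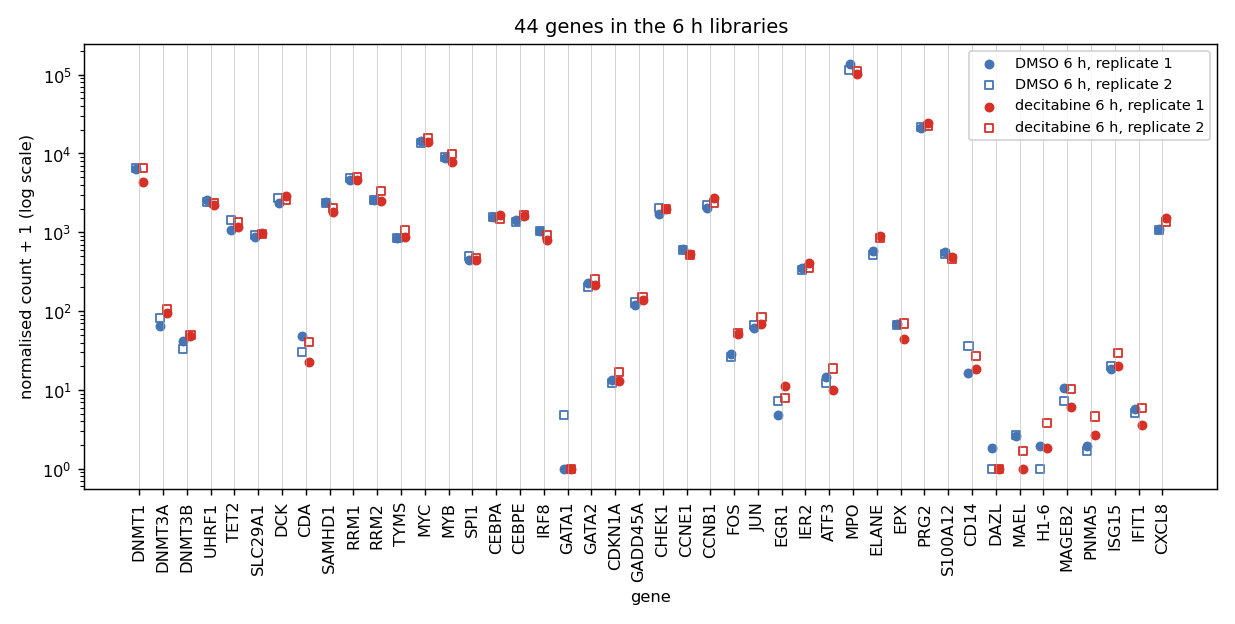
Normalised count plus 1 (log axis) of 44 genes in each 6 h library, blue for DMSO and red for decitabine, filled for replicate 1 and open for replicate 2. Colours are to be compared within a gene, since levels are not scaled by gene length; of the 43 genes tested, both red points lie above both blue points in 15 and below them in 7, where 18.2% and 20.8% of all genes did so.

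Stress and damage transcripts were then examined. CDKN1A, the cyclin-dependent kinase inhibitor p21, had 12 and 15.9 with decitabine and 12.5 and 11.4 with DMSO. GADD45A, a stress gene induced by DNA damage, had 137 and 152 with decitabine and 120.5 and 128 with DMSO, a log2 fold change of 0.22 ± 0.34 SE. CDKN1A overlapped between the groups, and GADD45A was higher in both decitabine libraries without passing. Of 24 tested p53 target genes 17 had a positive change, with a median of 0.083; 8 had both decitabine values above and 2 had both below (18.2% and 20.8% of all genes did). That median was 0.13 with equal totals and 0.10 with quantile normalisation. Their highest was TP53INP1, an inducer of autophagy and cell death, at 29.4 and 28.1 against 25.1 and 13.1. Their lowest was MDM2, the ubiquitin ligase of p53, at 1376 and 1467 against 2699 and 1874. CHEK1, the kinase of the replication checkpoint, overlapped at 1994 and 1988 against 1693 and 2019.7. Of 32 DNA repair and checkpoint genes 24 had a negative change and 8 a positive one, 13 had both decitabine values below both DMSO values (20.8% of all genes did), and the median was -0.086. Against the mean of the DMSO libraries the median was -0.12 in replicate 1 and -0.078 in replicate 2, so both decitabine libraries were on the same side. None of the 32 was called, and 28 had intervals within 2-fold. The median was -0.034 with equal totals and -0.045 with quantile normalisation.

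Cell-cycle genes did not show a called change. CCNE1, the cyclin of entry into S phase, had 536 and 513 with decitabine and 619.9 and 598 with DMSO. CCNB1, the mitotic cyclin, had 2740.0 and 2335 with decitabine and 2027 and 2247 with DMSO. CCNE1 was lower and CCNB1 higher in both decitabine libraries, by log2 fold changes of -0.21 ± 0.23 SE and 0.25 ± 0.19 SE. The 32 DNA replication genes divided into 18 positive and 14 negative, with a median of 0.028 (0.08 with equal totals and 0.051 with quantile normalisation), and 29 had intervals within 2-fold. The 30 mitosis genes divided into 11 positive and 19 negative, with a median of -0.092, which was -0.15 in replicate 1 and 0.021 in replicate 2 against the DMSO mean. The mitosis genes therefore differed in side between the decitabine replicates, and their median was -0.04 with equal totals and -0.017 with quantile normalisation. The 34 tested histone genes of the replication clusters divided into 17 and 17, with 10 above and 10 below (18.2% and 20.8% of all genes were). Their median was 0.0025, or 0.055 with equal totals and 0.036 with quantile normalisation. H2BC7, an H2B histone, was the lowest of them at 1529 and 1800.1 against 2384 and 2338. The highest, the H2A histone H2AC14, had 6.89 and 4.07 with decitabine and was listed at 0 in both DMSO libraries; 3 counts are worth 2.58 and 1.22 units in the decitabine libraries. In bulk RNA, fewer cells in a phase and less RNA per cell cannot be told apart.

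Immediate-early genes, which respond to signals within the hour, included the largest relative difference of the 44 genes at a level above 20. FOS, a subunit of the factor AP-1, had 50.6 and 52.1 normalised counts with decitabine and 27.7 and 24.9 with DMSO. DMSO libraries of other times held 54.2 and 39.4 of FOS at 120 h and 86.9 at 72 h, around its decitabine values of 6 h. At 6 h both decitabine values exceeded both DMSO values, a log2 fold change of 0.94 ± 0.60 SE. The interval was -0.42 to 2.31 with all libraries and 0.41 to 1.47 without those of 72 h, and FOS did not pass in either fit (limma, Benjamini-Hochberg adjusted p = 1 and 0.493). JUN, its partner, had 68.1 and 83.4 with decitabine and 59.6 and 66 with DMSO. EGR1, a zinc finger factor of the same class, had 10.3 and 6.92 with decitabine and 3.84 and 6.19 with DMSO, a low level. JUN and EGR1 were higher in both decitabine libraries, and ATF3, a stress-induced factor, overlapped at 8.98 and 17.8 against 13.8 and 11.2. Of 30 immediate-early genes 19 had a positive change and 11 had both decitabine values above both DMSO values (18.2% of all genes did), while 3 had both below (20.8% did). The median was 0.11, and 0.087 in replicate 1 and 0.17 in replicate 2 against the DMSO mean. NR4A1, a nuclear receptor of this class, was the lowest at 5.43 and 7.21 against 10.3 and 12.1. None was called.

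Inflammatory, interferon and stress-response lists had small positive medians. CXCL8, the neutrophil chemokine interleukin 8, had 1525 and 1342 with decitabine and 1101 and 1056 with DMSO. All values with decitabine were the higher ones, with a log2 fold change of 0.41 ± 0.24 SE (limma, Benjamini-Hochberg adjusted p = 1). ICAM1, an adhesion molecule, was the highest NF-kB target at 22.2 and 11.7 against 5.25 and 5.17, a low level. TNFAIP3, an inhibitor of NF-kB signalling, was the lowest at 191 and 268 against 365 and 352. Of 23 NF-kB target genes 17 had a positive change, with 5 above, 2 below and a median of 0.094, or 0.15 with equal totals and 0.12 with quantile normalisation. ISG15, a ubiquitin-like interferon-stimulated protein, overlapped at 19 and 28.5 against 17.3 and 19.3, and IFIT1, an interferon-induced RNA-binding protein, stayed under the filter at 2.59 to 4.90. Of 26 tested interferon-stimulated genes 19 had a positive change, 9 were above and 3 below, and the median was 0.16. TRIM22, an interferon-induced ubiquitin ligase, was the highest of them at 136 and 121 against 47.6 and 84.7. In DMSO TRIM22 stood at 126 and 134 at 120 h and at 72.5 at 72 h. Of 24 tested genes of the integrated stress and unfolded protein responses, 18 had a positive change, 9 were above and 3 below, and the median was 0.13, or 0.075 in replicate 1 and 0.22 in replicate 2 against the DMSO mean. Over all genes 18.2% were above and 20.8% below, against which these 3 lists are to be read. STING1, which signals from cytosolic DNA, had 149.8 and 125 with decitabine and 89.2 and 71.2 with DMSO at 6 h. In DMSO it stood at 157 and 96.5 at 120 h and at 151 at 72 h. It was the highest of 19 tested nucleic-acid sensors at 6 h. The lowest was TLR9, a receptor for unmethylated CG DNA, listed at 0 and 0 with decitabine and at 3.84 and 7.56 with DMSO. Of the 19 sensors 9 had a positive change, and 2 were above and 7 below (18.2% and 20.8% of all genes were). Their median was -0.0042, or -0.11 with equal totals and -0.029 with quantile normalisation. No gene of these lists was called.

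**Figure D3:**
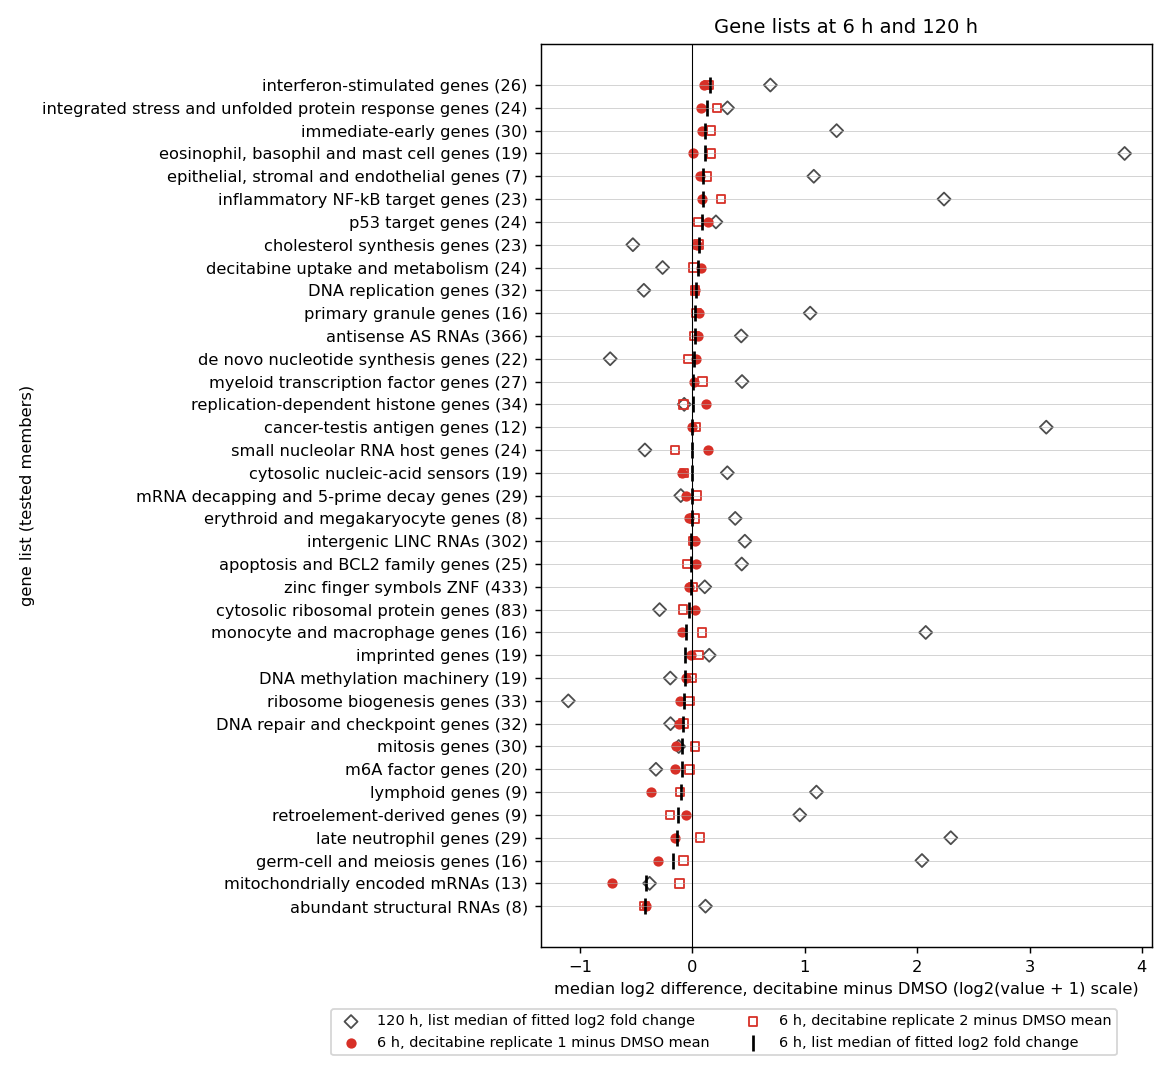
Median log2 difference of decitabine against DMSO (horizontal axis) for 37 gene lists, with the number of tested members in brackets. Black bars give the 6 h median of fitted changes, red points each decitabine 6 h replicate against the mean of the DMSO 6 h libraries, and diamonds the 120 h median. At 6 h the medians lie between -0.42 and 0.16, while the diamonds reach 3.85 for eosinophil, basophil and mast cell genes. Of the 19 tested members of that list, 7 passed the filter through decitabine libraries alone.

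The transcripts of mitochondrial DNA had negative changes, for the larger part from 1 library. All 13 tested mitochondrial mRNAs had a negative change, 8 had both decitabine values below both DMSO values (20.8% of all genes did), and the median was -0.41. Against the DMSO mean this median was -0.72 in replicate 1 and -0.11 in replicate 2. The summed mitochondrial mRNAs took 0.238% of the normalised counts in decitabine replicate 1, 0.415% in decitabine replicate 2, and 0.379 and 0.382% in DMSO. MT-ND6, which is encoded on the light strand, was the lowest at 283 and 339 against 449.8 and 640.1. MT-ND3, like MT-ND6 a subunit of complex I, overlapped at 2793 and 5425 against 4164 and 4512. None of the 13 was called. The abundant transcript FP671120.7 also had lower values in both decitabine libraries, at 5545 and 24872 with decitabine and 110150.0 and 66926 with DMSO, or 0.042 and 0.186% against 0.794 and 0.493% of the normalised counts. RN7SL1, the RNA of the signal recognition particle, went the other way at 97009 and 90369.8 against 71554 and 65645. The part of these differences in the other results was not tested.

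Of 36 germ-cell and meiosis genes, 24 were under 10 normalised counts in all 4 libraries of 6 h. Over all 60240 genes, 13573 to 13795 stood at 10 or more in a single 6 h library, so a low level is common. Methylation was not measured in these libraries. DAZL, a translation factor of germ cells, was listed at 0 and 0 with decitabine and at 0.856 and 0 with DMSO. MAEL, of the piRNA pathway that restrains transposons, had 0 and 0.676 with decitabine and 1.6 and 1.71 with DMSO. H1-6, the linker histone of the testis, had 0.862 and 2.85 with decitabine and 0.961 and 0 with DMSO. All 3 were under 3 normalised counts in each 6 h library, and the groups overlapped in DAZL and H1-6. At 120 h the decitabine libraries held 86.4 and 101 for DAZL, 118 and 113 for MAEL and 264 and 284 for H1-6, against 0 and 0, 1.92 and 2.0 and 3.19 and 4.02 in DMSO. These 3 genes were picked, after their values were seen, to show the promoter sequence behind such genes, since methylation falls on cytosines followed by guanine. The 250 bases before the transcription start are given as RefSeq lists them on build GRCh38.p14, 5′ to 3′ on the gene's strand, with each CG in capitals; DAZL and MAEL have 2 such windows each, of which the one nearest the gene start in GENCODE release 29 is shown. That DAZL window still lies 64883 bases from the GENCODE start, within the gene as annotated there.
DAZL, chr3:16605424-16605673, minus strand: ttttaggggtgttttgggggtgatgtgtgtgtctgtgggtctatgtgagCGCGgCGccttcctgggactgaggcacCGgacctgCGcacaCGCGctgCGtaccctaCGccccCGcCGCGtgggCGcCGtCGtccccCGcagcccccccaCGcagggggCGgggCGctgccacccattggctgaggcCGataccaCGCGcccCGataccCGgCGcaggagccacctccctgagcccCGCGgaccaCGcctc
MAEL, chr1:166975332-166975581, plus strand: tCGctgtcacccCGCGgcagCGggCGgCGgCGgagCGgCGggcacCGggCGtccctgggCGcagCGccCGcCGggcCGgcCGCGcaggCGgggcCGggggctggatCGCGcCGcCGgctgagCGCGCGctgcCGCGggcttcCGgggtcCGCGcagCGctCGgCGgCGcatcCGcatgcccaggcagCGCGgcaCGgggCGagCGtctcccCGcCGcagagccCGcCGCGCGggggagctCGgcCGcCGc
H1-6, chr6:26108136-26108385, minus strand: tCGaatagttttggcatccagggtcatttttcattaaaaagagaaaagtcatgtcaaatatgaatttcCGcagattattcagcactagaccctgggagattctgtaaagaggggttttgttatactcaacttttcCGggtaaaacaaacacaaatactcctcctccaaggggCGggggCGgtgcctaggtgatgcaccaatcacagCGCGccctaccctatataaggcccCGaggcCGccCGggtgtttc
The MAEL window holds 51 CG, and 0.114% of the 35116 windows of this length in the table hold as many. The DAZL window holds 28 (15.9% hold as many) and the H1-6 window 10 (52.2%), against a median of 11. The motif counted was CG, which reads the same on both strands. Among the 36 germ-cell and meiosis genes 16 passed the filter on low values, which a gene could do through its later libraries alone. Of these 16, 6 had a positive and 10 a negative change, 3 were above and 3 below (18.2% and 20.8% of all genes were), and the median was -0.17. SYCP2, of the meiotic chromosome axis, was the highest tested at 51.8 and 46 against 20.4 and 23.4, higher in both decitabine libraries and not called. TDRD6, a tudor protein of germ cells, was the lowest at 0 and 0.741 against 0 and 10.8, and it overlapped. Of 48 cancer-testis antigens 43 were under 10 at 6 h and 35 were at 0 in all 4 libraries. MAGEB2, of the MAGE family, overlapped at 5.17 and 9.36 against 9.61 and 6.19. PNMA5, derived from a retroelement, had 1.7 and 3.62 with decitabine and 0.974 and 0.696 with DMSO, the highest of 9 tested retroelement-derived genes. Of these 9, 3 had a positive and 6 a negative change, with a median of -0.13, or -0.08 with equal totals and -0.15 with quantile normalisation.

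The genes that decitabine altered by 120 h were next read in the 6 h libraries, which share no library with the 120 h comparison although both use the pooled estimate of the spread. At 120 h limma called 1601 genes higher (9.91%) and 969 lower (6%). With 1 of the 120 h libraries left out it called 579 to 897 higher and 210 to 338 lower, and leaving out decitabine 72 h replicate 1 or replicate 2 gave 2544 higher in each case, with 2396 and 2390 lower. The 1601 had a median log2 fold change of 1.85 at 120 h, raised by their selection, and of -0.0031 at 6 h, with quartiles of -0.21 and 0.23. At 6 h 48.3% of them were positive, as were 48.5% of all genes, and 18.6% had both decitabine values above both DMSO values, against 18.2% of all genes. The 969 lower genes had medians of -1.0 at 120 h and 0.021 at 6 h, and 54.2% of them were positive at 6 h. Both decitabine values lay below in 20.4% of the 969, against 20.8% of all genes, and above in 26.2%, against 18.2%. The latter side is opposite to their direction at 120 h. Of the 1601, 428 had a mean under 10 at 6 h. At that level the added 1 understates changes, yet fitted changes also spread most. The median absolute log2 fold change was 0.47 over the 2484 tested genes under 10, against 0.198 over all genes tested. The 1173 others of the 1601 had a 6 h median of -0.020. Of the 396 genes at least 8-fold higher at 120 h, 269 had such a low mean, and the 127 others had a 6 h median of 0.076. Limma's test of the difference between times called 671 of the 1601 and 253 of the 969, where it called 5.9% of all genes, and the choice of these genes on their 120 h values raises those counts.

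**Figure D4:**
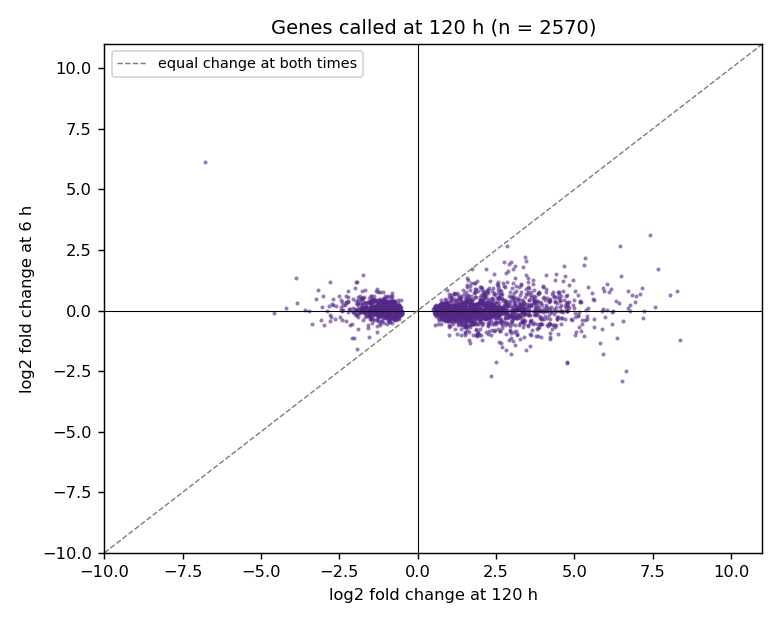
Log2 fold change at 6 h (vertical) against that at 120 h (horizontal) for the 2570 genes called at 120 h, with a dashed line of equal change at both times. The points lie along the horizontal axis, with 6 h medians of -0.0031 for the 1601 higher genes and 0.021 for the 969 lower genes.

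The difference between the decitabine effects at the 2 times was tested in the same model. Limma called 953 genes (5.9%), 689 with a more positive effect at 120 h (4.27%) and 264 with a more negative one (1.63%). Without the 72 h libraries these were 3010 genes, 1598 and 1412. With any 1 of the 8 libraries of 6 and 120 h left out the count was 225 to 464, and it was 2996 and 3005 without decitabine 72 h replicates 1 and 2. EPX, the peroxidase of eosinophil granules, had 43.1 and 68.8 with decitabine and 67.3 and 65.3 with DMSO at 6 h, and 5582 and 5693 with decitabine and 83 and 92.5 with DMSO at 120 h. PRG2, the eosinophil major basic protein, had 24320.4 and 22287 with decitabine and 21239 and 21668 with DMSO at 6 h, then 108091 and 118412 with decitabine and 13438 and 14471 with DMSO. In both genes the 120 h groups were far apart where the 6 h groups were close, with differences of the log2 effects of 6.27 ± 0.40 SE and 2.90 ± 0.25 SE (limma, Benjamini-Hochberg adjusted p = 5.05e-04 and 0.00135). The 19 tested eosinophil, basophil and mast cell genes had a median of 0.11 at 6 h (0.16 with equal totals and 0.058 with quantile normalisation) and 3.85 at 120 h. Of the 19, 10 were under 10 in all 4 libraries of 6 h and so passed the filter through later libraries. At 120 h 16 were called higher (9.91% of all genes were), at 6 h 0, and 14 in the difference. The 29 late neutrophil genes had medians of -0.14 (-0.088 with equal totals and -0.079 with quantile normalisation) and 2.30, with 19 called higher and 1 lower at 120 h and 16 in the difference. Of the 29, 6 were under 10 in all 4 libraries of 6 h and 4 under 10 in all DMSO libraries, which raises these counts likewise. S100A12, a calcium-binding protein of neutrophils, was 490.4 and 461 with decitabine and 558 and 532 with DMSO at 6 h, slightly lower in both decitabine libraries, and 3878 and 4076 against 538 and 508 at 120 h.

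Genes lower at 120 h were likewise uncalled at 6 h. MYC was 3444 and 3033 with decitabine and 14185 and 13099.7 with DMSO at 120 h, and the difference of its effect, 120 h minus 6 h, was -2.17 ± 0.26 SE in log2 units (limma, Benjamini-Hochberg adjusted p = 0.00382). IRF8 was 176 and 191 with decitabine and 1030.1 and 1008 with DMSO at 120 h. Its difference between times was -2.20 ± 0.24 SE (limma, Benjamini-Hochberg adjusted p = 0.00305), so the 6 h value of -0.27, on the same side, was smaller than the later one. Ribosome biogenesis genes, 24 of 33 called lower at 120 h (6% of all genes were) with a median of -1.10, had 26 negative and 7 positive changes at 6 h and a median of -0.076, or -0.024 with equal totals and -0.012 with quantile normalisation. Of these 33, 12 had both decitabine values below both DMSO values at 6 h (20.8% of all genes did) and 3 had both above (18.2% did). Intervals of 29 lay within 2-fold, and 6 were called in the difference (5.9% of all genes were). For DNMT3A, FOS and SAMHD1 the difference between times did not pass (limma, Benjamini-Hochberg adjusted p = 0.762, 0.534 and 0.279), and SAMHD1 had fallen at 120 h by 0.83 on the log2 scale (limma, Benjamini-Hochberg adjusted p = 0.0171).

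The genes that lead the 6 h comparison by unadjusted p, among those with a mean of at least 100 and groups that do not overlap, were chosen on these same values, which are therefore descriptions. Coordinates are those of GENCODE release 29 on hg38. RASAL3 (chromosome 19, 15451624 to 15464571), a GTPase-activating protein for Ras-family proteins of blood cells, had 211 and 155 with decitabine and 74.4 and 76.7 with DMSO. Its log2 fold change was 1.25 ± 0.21 SE (limma, Benjamini-Hochberg adjusted p = 0.666). SEC14L1 (chromosome 17, 77088749 to 77217101), a lipid-binding protein of the SEC14 family, had 507 and 497 with decitabine and 284 and 269.5 with DMSO, a change of 0.86 ± 0.17 SE. TSPAN2 (chromosome 1, 115048011 to 115089500), a tetraspanin, had 325 and 289 with decitabine and 194 and 200.4 with DMSO. These 3 genes were also called higher at 120 h, where their log2 fold changes were 1.61, 0.92 and 2.11 (limma, Benjamini-Hochberg adjusted p = 0.00194, 0.00824 and 1.65e-04). At 72 h, however, RASAL3 stood at 178 and 175 with decitabine and 192 in the DMSO library. Other leading genes were called at 120 h on the side opposite to that of 6 h, namely TNS3 and, below, WDR45, ITCH, EIF3CL and NOMO3. TNS3 (chromosome 7, 47275154 to 47582558), a tensin of focal adhesions, had 129 and 167 with decitabine and 46.1 and 59.3 with DMSO at 6 h. At 120 h TNS3 was called on the other side, with 27.8 and 25.7 against 93.6 and 92.2 (limma, Benjamini-Hochberg adjusted p = 0.00466). GATAD2B, of the nucleosome remodelling and deacetylase complex, spread widely between replicates at 216 and 454 against 41 and 80.4, and PDSS2, of coenzyme Q synthesis, had 891 and 667 against 326 and 436.

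On the lower side, WDR45 (chromosome X, 49071470 to 49101170), an autophagy protein, had 33.9 and 34.2 with decitabine and 311 and 162 with DMSO. Its log2 fold change was -2.68 ± 0.39 SE (limma, Benjamini-Hochberg adjusted p = 0.453), and at 120 h it stood at 168 and 144 with decitabine and 22.4 and 39.5 with DMSO. ITCH (chromosome 20, 34363235 to 34511393), a ubiquitin ligase, had 4055 and 4818 with decitabine and 9159 and 8505 with DMSO, a change of -1.0 ± 0.20 SE. At 120 h ITCH was 13847 and 14516 with decitabine and 6548 and 4434 with DMSO. WDR45 and ITCH were thus both on opposite sides at the 2 times, and both were called higher at 120 h (limma, Benjamini-Hochberg adjusted p = 0.00596 and 0.00328). ZNF316 (chromosome 7, 6637322 to 6656432), a zinc finger gene, had 185 and 222 against 933 and 921, and at 120 h 704 and 684 against 779 and 413, which overlapped. RC3H1, an RNA-binding protein that promotes mRNA decay, had 1172 and 2033 against 4855 and 3545. CNOT6, a deadenylase subunit, had 523 and 805 against 1239.8 and 1178. The other genes that this ranking gave were AL035461.4, at 119.8 and 228 against 596 and 689.6, and AC116533.1, at 879 and 459.9 against 1503 and 1614.

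Several leading genes have near-identical copies between which short reads can be divided. EIF3CL, a copy of the translation initiation factor gene EIF3C, had 445 and 310.1 with decitabine and 27.9 and 0 with DMSO. At 120 h EIF3CL was listed at 0 in both decitabine libraries, against 36.7 and 326 with DMSO, and was called lower (limma, Benjamini-Hochberg adjusted p = 0.016). EIF3C and EIF3CL together gave a log2 ratio of the mean sums of 0.0015, a sum made up almost wholly of EIF3C at 9867 to 11645, so it says little of EIF3CL. NOMO3, of a membrane protein family with copies on chromosome 16, had 525 and 512 against 1203 and 902, and NOMO1, NOMO2 and NOMO3 together gave -0.11. At 120 h NOMO3 was called higher, at 903 and 1013 with decitabine and 534 and 421 with DMSO (limma, Benjamini-Hochberg adjusted p = 0.0107). IPO5P1, a pseudogene of the importin IPO5, had 199 and 219 against 34.1 and 35, and with IPO5 the sum gave -0.049, likewise almost wholly from IPO5. These single-copy values are uncertain for that reason, and the sums, formed after the values were seen, have no test.

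Genes listed at 0 in both libraries of one group and at 10 or more in both of the other were few. With a cut of 1 in place of 10, 194 genes were listed at 0 in DMSO alone and 89 at 0 in decitabine alone. A cut of 3 gave 28 and 17. Decitabine replicate 2 was the deepest of the 4 libraries, with a count worth 0.407 units, and the part of depth in these counts was not tested. At least 10 normalised counts in both decitabine libraries and 0 in both DMSO libraries were found for 8 genes, and the converse for 3. RPL23AP42, a pseudogene of a ribosomal protein, had 1573 and 2275 with decitabine and was listed at 0 with DMSO. AC018523.2 had 96.5 and 117 with decitabine, and the ribosomal protein pseudogene RPL41P1 had 996 and 71.2, both listed at 0 with DMSO. In the other direction SNORD116-5, a small nucleolar RNA, had 42.3 and 118 with DMSO, GET1-SH3BGR, a readthrough of neighbouring genes, had 51.5 and 32.4, and ENO1P4, a pseudogene of an enolase, had 12.5 and 14.4, all listed at 0 with decitabine. None of these 6 had the same pattern at 120 h: RPL23AP42 was at 0 and 0 with decitabine and 0 and 2865 with DMSO, and GET1-SH3BGR at 14.1 and 23 with decitabine and 19.8 and 20.6 with DMSO. GET1-SH3BGR is the gene called without the 72 h libraries (limma, Benjamini-Hochberg adjusted p = 0.0409). Its locus overlaps GET1 and SH3BGR, and the 3 genes summed gave a log2 ratio of 0.16. RPL23A with RPL23AP42 gave -0.32 and RPL41 with RPL41P1 gave 0.18, sums made up mostly of RPL23A and RPL41.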

How the data were processed

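RNA-seq of HL-60 cells was analysed for the 4 libraries of 6 h, within a model of all 11 libraries with values. The deposited values are a normalised signal, never negative, with the spacing of estimated counts that the authors divided by a size factor for each library. The submitters' processing notes name hg38, Salmon 1.2.1, STAR, featureCounts, DESeq2 and limma. The release of the annotation: not given in the sources used here. In each library 64.7 to 67.2% of low values were whole multiples of one step within 0.01, so whole reads were not recovered and no count model was run. Depth was estimated from these steps. The heading, per the file headers, names 12 libraries over 11 columns of values; its names were taken to begin at the symbol field, leaving DMSO 72 h replicate 2 without values (not analysed here). So read, libraries of a group differed by 0.299 and of different groups by 0.439 (mean of median absolute log2 differences), against 0.429 and 0.426 when read from the identifier. Every result rests on this reading.

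Values were taken as log2(value + 1), and genes of at least 10 in at least 2 libraries (16152 of 60240) were fitted with limma 3.58.1 in R 4.3.3 (lmFit, eBayes with a trend, 5 residual degrees of freedom, 8.4 with those borrowed), two-sided, with Benjamini-Hochberg adjustment over all genes tested. DMSO at 72 h had 1 library, assumed to vary like the other groups. Intervals are 95% intervals of the model. The model was tested on simulated data. Named genes were the 44 of a fixed panel, the 8 per direction of smallest p with a mean of at least 100 and groups that do not overlap, the extremes of each list, the 6 per direction of smallest p at 120 h, and 3 per direction listed at 0 in one group. The members, the 37 gene lists and the panel were chosen with earlier results of these data known. Of 865 list symbols 863 were matched. Coordinates came from GENCODE release 29 and promoters from RefSeq. Plots used matplotlib 3.10.9. Alternatives covered the pseudocount, filter, scaling, model of the spread, libraries entered, replicate block and each library left out. Some genes that these rules name are not reported here.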

Additional observations from a re-analysis of the deposited data

Results flagged for a closer look

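The decitabine effect at 120 h differed from that at 6 h, by limma's test of the difference itself, for 953 genes at a Benjamini-Hochberg adjusted p under 0.05. Among the panel and the genes leading at 120 h the differences below passed, each given as the log2 effect at 120 h minus that at 6 h. Genes listed at 0 in both libraries of a compared group are left out, since no fold is given for them. The genes leading at 120 h were chosen on 120 h values, which enter the difference, so their values are descriptions.

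A more positive effect at 120 h was found for the following genes. The difference was 6.27 for EPX, 2.902 for PRG2, 3.122 for S100A12 and 5.317 for S100A6. It was 3.865 for CR1, a complement receptor. CES1, a carboxylesterase of monocytes, gave 3.711. Germ-line and retroelement-derived genes gave 6.334 for MAEL, 4.967 for H1-6, 3.871 for MAGEB2 and 6.218 for PNMA5. Each of these was under 10 normalised counts in every 6 h and every DMSO library. They passed the filter only through later decitabine libraries, where they are high, which favours a difference, so their values are descriptions. Factors and response genes gave 1.776 for GATA2, 2.65 for CDKN1A, 2.04 for JUN and 1.831 for CXCL8.

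A more negative effect at 120 h was found for MYC at -2.167 and IRF8 at -2.2. The tyrosine kinase MATK gave -2.917, the chemokine receptor CCR2 -2.503, the fatty-acid synthesis enzyme ACACA -1.721 and the amino-acid transaminase BCAT1 -2.423. At 6 h the 6 genes leading at 120 h on this lower side gave, for instance, 4650.2 and 4751 for BCAT1 with decitabine and 4518 and 4699 with DMSO, and 711 and 676 for MATK with decitabine and 596 and 598 with DMSO. Of these 20 genes 15 passed under every one of the 23 alternatives. The other 5 were GATA2, lost under 2 alternatives, CDKN1A under 13, JUN under 8, MAGEB2 under 1 and CXCL8 under 8, mostly with 1 library of 6 h or 120 h left out.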

How the results depend on the processing

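No result changed direction past the threshold under any alternative. The count of 0 genes called at 6 h became 3 with the 6 h libraries alone (ZNF316, RPL23AP42, AC018523.2), 3 without a trend (PIEZO2, AC007326.4, AL110114.1) and 1 without the 72 h libraries (GET1-SH3BGR), an alternative chosen after seeing the data; with single libraries left out it was 0 to 3. They included PMS2P6, AL139300.1 and AC107871.1 without decitabine 6 h replicate 2 and GET1-SH3BGR without decitabine 72 h replicate 1. The 541 genes at an unadjusted p under 0.05 became 1507 with no filter, 1140 with the 6 h libraries alone, 1290 with array weights, 328 with the filter at 50 and 313 to 1277 with a library left out. The 953 genes of the difference, 72.3% of them positive, became 589 with no filter, 3010 with the 6 h and 120 h libraries alone (53.1% positive), 3021 with array weights (57.0%) and 225 to 3005 with a library left out; the lowest was without decitabine 120 h replicate 1 and the highest without decitabine 72 h replicate 2. Quantile normalisation gave 1186 genes, 58.4% positive. The share of intervals within 2-fold was 33.3 to 60.3% with a library left out, lowest without decitabine 6 h replicate 2. The 6 h median of genes higher at 120 h was -0.016 with the filter at 50, -0.020 with the 6 h libraries alone, -0.013 with array weights, -0.019 with quantile normalisation, 0.032 with equal totals, -0.017 without the 72 h libraries and -0.017 to 0.0094 with a library left out. That of genes lower at 120 h was 0.069 with equal totals and -0.0012 to 0.062 with a library left out. Fewer samples or other genes tested are part of the filter and left-out settings; otherwise the cause was not tested. The replicate differences of decitabine and DMSO at 6 h correlated at 0.026 over genes, and those of all pairs of groups at -0.078 to 0.124. No strong shift shared by replicate number was seen, which does not settle whether samples were paired. With a replicate block 0 genes were called at 6 h and 763 in the difference.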

Other observations

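Metabolic and ribosomal genes were also uncalled at 6 h. Of 23 tested cholesterol synthesis genes 14 had a positive change, and 22 had an interval within 2-fold of no change. Both decitabine values lay above both DMSO values in 7 and below in 0 (18.2% and 20.8% of all genes did). The median log2 fold change was 0.062 at 6 h (0.11 with equal totals and 0.077 with quantile normalisation) and -0.53 at 120 h. At 120 h 4 were called lower and 1 higher, where 6% and 9.91% of all genes were. The 22 genes of de novo nucleotide synthesis had a median of 0.014 at 6 h (0.066 with equal totals and 0.067 with quantile normalisation), and 9 of them were called lower at 120 h (6% of all genes were), where the median was -0.73. The 83 cytosolic ribosomal protein genes divided into 35 positive and 48 negative, with a median of -0.028 that changed sign to 0.024 with equal totals and 0.038 with quantile normalisation. The 24 small nucleolar RNA host genes divided evenly, and their median against the DMSO mean was 0.14 in replicate 1 and -0.15 in replicate 2, so the decitabine replicates lay on opposite sides.

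Genes of other blood lineages, and transcript classes often examined after loss of DNA methylation, gave small medians. The 16 tested monocyte and macrophage genes had a median of -0.061 (-0.0091 with equal totals and -0.032 with quantile normalisation), with CLEC7A, a receptor for fungal glucans, the highest at 18.3 and 25.7 with decitabine against 10.8 and 15.6 with DMSO. The 27 myeloid transcription factor genes had a median of 0.0068 (0.054 with equal totals and 0.053 with quantile normalisation), with RUNX3 the highest at 144 and 142 against 87.4 and 91.7. In DMSO RUNX3 stood at 180 and 144 at 120 h and at 153 at 72 h. Of the 9 tested lymphoid genes CD3D, a subunit of the T-cell receptor complex, was the lowest at 0.21 and 0 with decitabine and 6.1 and 4.37 with DMSO, where 3 counts are worth 2.88 and 2.06 units, and it stood at 142 and 108 with decitabine at 120 h. The 302 tested intergenic LINC RNAs had a median of -0.0087, the 366 antisense RNAs 0.025 and the 433 zinc finger genes named ZNF -0.013, where all genes had -0.0086. With equal totals these became 0.025, 0.075 and 0.038, where all genes had 0.041, and with quantile normalisation -0.048, -0.0023 and -0.011. ZEB2-AS1, the highest antisense RNA, had 118 and 61 with decitabine and 3.5 and 6.38 with DMSO; whether the counting used the strand is not stated, so reads of ZEB2 and of ZEB2-AS1 cannot be told apart. By class, the median was -0.0090 over 12251 protein-coding genes, -0.0096 over 2248 long non-coding genes and 0.039 over 836 pseudogenes.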
